A study of Homo sapiens with 54 samples.

Results

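*MALAT1*, *NEAT1*, *TUG1*, *KCNQ1OT1*, *MEG3* and *MIAT* are long noncoding RNAs (lncRNAs) known to act largely in the nucleus. They were chosen by name, with earlier results of these data known, and are 6 of the 55906 gene names quantified in every library. Their levels were followed across 18 conditions in 4 human cancer cell lines in which the paralogous splicing factors TRA2A and TRA2B were depleted or TRA2B was overexpressed, with 3 replicate libraries per condition and 54 in all. In the lung adenocarcinoma lines A549 and NCI-H23, cells carrying Zim3-dCas9, a nuclease-dead Cas9 fused to a transcriptional repressor, received control guides (Control KD, for knockdown), guides for 1 paralog (*TRA2A* KD or *TRA2B* KD), or guides for both (*TRA2A/B* DKD, double knockdown). In the glioblastoma lines LN229 and LN319, cells stably expressing luciferase (Luc) received Cas9 with guides for Control KO (knockout), *TRA2A* KO or *TRA2B* KO. LN229 and LN319 cells overexpressing *TRA2B* (TRA2B-OE) received Control KO or *TRA2A* KO. Control KD and Control KO cells carried the same CRISPR machinery with control guides. All groups are transduced cell populations, and KO cells were collected later after transduction than KD cells, so KD and KO are not compared with each other. In such bulk populations, fewer cells with an RNA and less of that RNA per cell cannot be told apart.

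TRA2A and TRA2B are SR-like proteins that bind purine-rich RNA and promote exon inclusion. *MALAT1* RNA gathers in nuclear speckles, bodies rich in splicing factors, whereas the long isoform of *NEAT1* is the scaffold of paraspeckles, bodies built on this RNA and a set of RNA-binding proteins. *TUG1* is found in the nucleus and the cytoplasm, *KCNQ1OT1* is transcribed antisense within the imprinted *KCNQ1* gene and silences its neighbours in cis, *MEG3* is transcribed from the imprinted *DLK1*–*MEG3* region, and *MIAT* forms nuclear domains of its own and is known in neural cells and retina. The libraries were made from RNA captured on poly-T beads. The values are gene-level TPM (transcript abundance scaled for transcript length and library total), so the short polyadenylated and the long form of *NEAT1* could not be told apart.

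Since the perturbed proteins recognise purine-rich RNA, the members' longest annotated transcripts were searched for AGAA and GAAGAA on their own strand, overlapping matches counted and GAAGAA matches containing an AGAA in part. *MALAT1* (chr11:65497640-65508073, plus strand) and *NEAT1* (chr11:65422774-65445540, plus strand) lie 52099 bases apart on GRCh38. The *MALAT1* transcript of 10434 bases in 1 exon held 109 AGAA, or 10.45 per kb, a density that 18.6% of 31519 genes with a longest transcript of at least 1000 bases reached. *NEAT1*, with 22743 bases in 1 exon, held 105 AGAA or 4.62 per kb, a density that 81.8% of genes reached, and so lay on the sparse side of the median of 7.33 per kb. *KCNQ1OT1* (chr11:2597308-2700003, minus strand) held 10.55 per kb, *MEG3* (chr14:100779410-100861031, plus strand) 9.16, *TUG1* (chr22:30969245-30979395, plus strand) 6.96 and *MIAT* (chr22:26646411-26676475, plus strand) 5.52. GAAGAA ran from 0.197 per kb in *MIAT* to 1 per kb in *MEG3*, beside a median of 0.654 over the same genes. The 120-base windows with the most AGAA (in capitals) are shown for *MALAT1* and *NEAT1*, and for *MEG3* and *MIAT* because these members were called in opposite directions in one condition. They are exonic, from the reference sequence, at chr11:65499629-65499748 with 9 AGAA, chr11:65425067-65425186 with 4, chr14:100850596-100850715 with 10 and chr22:26665679-26665798 with 4, all on the plus strand. A match describes the letters alone and does not mark a binding site.
MALAT1: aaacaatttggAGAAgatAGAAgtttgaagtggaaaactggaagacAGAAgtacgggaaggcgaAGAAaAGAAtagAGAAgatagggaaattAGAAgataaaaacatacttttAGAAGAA
NEAT1: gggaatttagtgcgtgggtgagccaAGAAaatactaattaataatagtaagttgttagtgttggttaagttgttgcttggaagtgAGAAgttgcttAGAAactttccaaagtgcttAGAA
MEG3: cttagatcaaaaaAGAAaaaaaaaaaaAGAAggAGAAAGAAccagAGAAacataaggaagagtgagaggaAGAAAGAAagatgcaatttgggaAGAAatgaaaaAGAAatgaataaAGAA
MIAT: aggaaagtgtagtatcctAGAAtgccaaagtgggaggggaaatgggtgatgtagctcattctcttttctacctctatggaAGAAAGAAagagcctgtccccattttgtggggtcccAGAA

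The deposited values held no read counts, so the depth behind each value is unknown. The TPM summed to between 928908 and 964610 per library over the genes given, and mitochondrially encoded RNA took 6.02 to 33.4% of it. *TRA2A* fell to 9.56% of its control mean in A549 *TRA2A* KD and 6.54% in NCI-H23 *TRA2A* KD, and *TRA2B* fell to 9.68% and 10.6% in *TRA2B* KD. In the DKD, 13.85% of *TRA2A* and 16.3% of *TRA2B* remained in A549, and 20.5% and 25.2% in NCI-H23. In LN319, *TRA2A* KO left 33.2% of *TRA2A* RNA and *TRA2B* KO 35.1% of *TRA2B* RNA, whereas in LN229 62.9% and 66.0% remained; Cas9 cutting need not lower the RNA. In TRA2B-OE cells, *TRA2A* KO left 52.8% of *TRA2A* RNA in LN319 and 87.2% in LN229, where the groups overlapped and the change was not called (limma adjusted p = 0.0793). *TRA2B* RNA in TRA2B-OE Control KO was 3.74-fold the Luc level in LN229 and 8.73-fold in LN319. Of the lineage markers, A549 had *KRT7*, *KRT8* and *KRT18* at 1949 to 3963 TPM but *EPCAM* at no more than 3.77, and NCI-H23 had *KRT8* and *KRT18* at 444.9 to 1369 TPM but *KRT7* at no more than 4.49, *EPCAM* 1.74 and *CDH1* 2.47. LN229 and LN319 had *VIM* at 2264 to 3454 TPM, *CD44* at 477.6 to 2297 and *SOX2* at 20.4 to 489.8, but *GFAP* at no more than 5.17, and LN319 had *S100B* at no more than 1.07 and *CDH1* at 116.4 to 150.1 TPM. *NES* read 212.7 to 285.9 TPM in LN229 but 6.12 to 14.7 in LN319. *VIM* and *CD44* were not confined to the glioblastoma lines. A549 had *VIM* at 834.7 to 1196 TPM and *CD44* at 239.1 to 358.5, and NCI-H23 had 1121 to 1687 and 53.1 to 100.4. *PTPRC*, *CD3E*, *PECAM1* and *ALB*, which these cultures should lack, stayed at or below 1.83 TPM, whereas *CD68* read 5.36 to 44.8 TPM.

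Of the 54 libraries, 2 stood apart in the members. A549 Control KD replicate 3 had *MALAT1* at 1756 TPM, against 597 and 517 TPM in the other Control KD libraries and at most 1031 in any other A549 library, and it had the lowest TPM sum. In the same library *KCNQ1OT1* was 3.23-fold the mean of the other Control KD replicates and *TUG1* 1.67-fold, whereas *NEAT1* was at 0.481 and *MEG3* at 0.522 of it and *MIAT* was listed at 0. It was kept in the main comparisons, and A549 member results against Control KD are given with and without it; those of other genes without it are given where a call or a count changed. LN229 Luc *TRA2A* KO replicate 3 held 10.9 TPM of *MEG3*, a gene at no more than 0.217 TPM in every other LN229 library. Of the 5 genes chosen after their values were seen as below 1 TPM in the other LN229 libraries and above 200 TPM in every LN319 library, *CALB1*, *CDKN2A*, *DLK1*, *MEG3* and *PDPN*, each was higher in this library than in all other LN229 libraries, at 0.616 to 0.998% of its LN319 mean. In the comparisons that use this library, no member gained or lost a call without it.

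Taking each line's control, *MALAT1* was the most abundant member in A549 and NCI-H23, *NEAT1* and *MALAT1* were close in LN229, and *MEG3* was the most abundant in LN319. By mean control TPM, *MALAT1* ranked 129th of 28693 genes above 0 in A549 and 297th in NCI-H23, and 499th and 510th in LN229 and LN319. *NEAT1* ranked 573rd, 2053rd, 494th and 956th. *MEG3* ranked 49th in LN319 at 1466 ± 28.7 TPM (SD, n = 3), with 19.03 ± 6.71 TPM in A549, 4.71 ± 1.502 in NCI-H23 and 0.0724 ± 0.125 in LN229. *TUG1* had control means of 8.28 and 8.68 TPM in the lung lines A549 and NCI-H23, and of 14.1 and 11.3 TPM in the glioblastoma lines LN229 and LN319, the narrowest spread of the 6 members. *MIAT* reached 4.89 ± 0.846 TPM in LN319 and at most 0.339 TPM as a control mean elsewhere, and *KCNQ1OT1* reached 1.41 ± 0.280 TPM in LN229 and at most 0.331 elsewhere. The lines have separate tables, so these levels carry no test between lines.

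**Figure D1:**
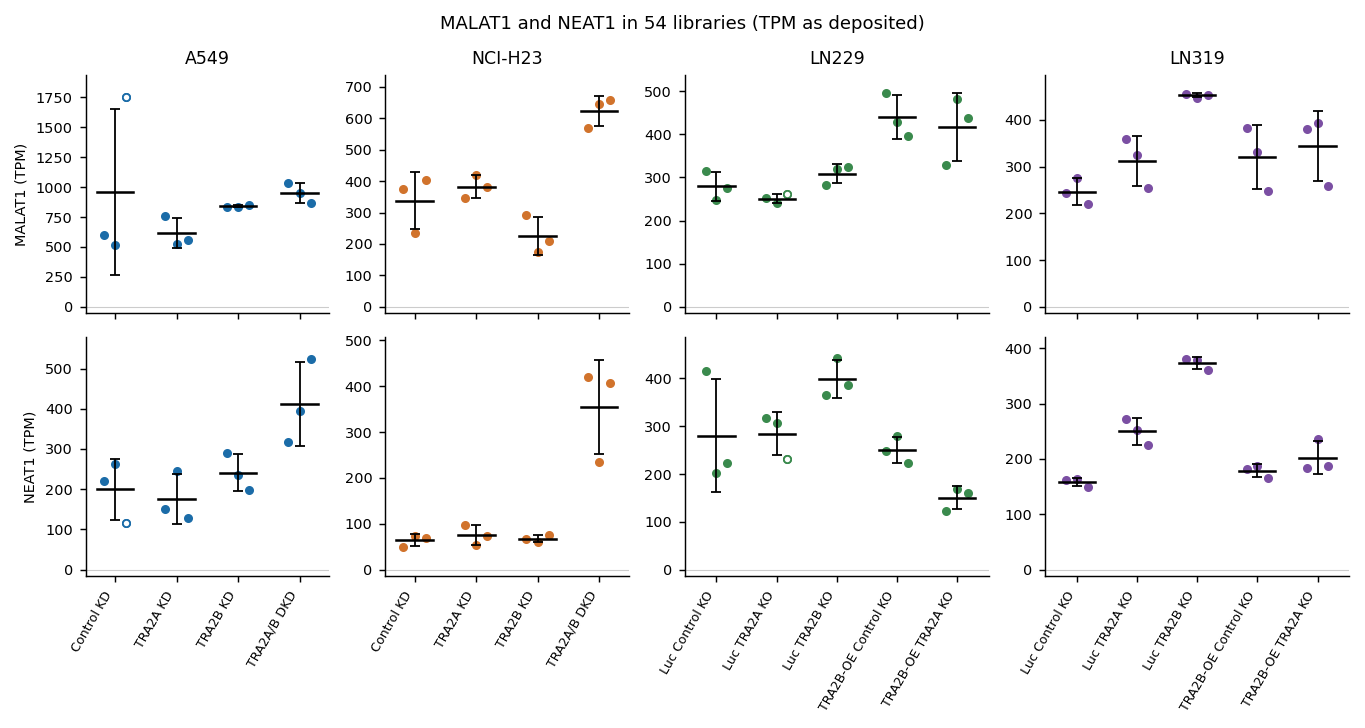
TPM of *MALAT1* (top row) and *NEAT1* (bottom row) in each of the 54 libraries, by cell line (columns) and condition (horizontal axis), with bars for the mean and SD of 3 replicates and open circles for A549 Control KD replicate 3 and LN229 Luc *TRA2A* KO replicate 3. Each panel has its own axis from 0; *NEAT1* in NCI-H23 *TRA2A/B* DKD reads 235 to 420 TPM against at most 98.0 in the other NCI-H23 libraries.

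The member test was limma on log2(scaled TPM + 0.1) over all genes of a line that reached 1 TPM in 4 or more libraries, with Benjamini-Hochberg adjusted p under 0.05 as the call. Folds and percentages of a control are of mean TPM as deposited, whereas log2 changes are of scaled TPM, so they need not match. Over the 14 comparisons of a perturbation with its control, the members gave 60 tests, of which 13 were called higher and 2 lower. The share of all genes called in these comparisons ran from 0.196 to 43.2%, so the unadjusted p needed for a call differed between them. A missing call is therefore not evidence of no change, and counts of calls are not like for like. *NEAT1* was called higher in 4 of 14 comparisons, *MALAT1* in 3 of 14, *TUG1* in 2 of 14, *MEG3* in 3 of 10, *KCNQ1OT1* in 0 of 4, and *MIAT* was called higher in 1 and lower in 2 of 4. With 3 libraries against 3, an exact permutation test cannot go below a p of 0.1, which is its value wherever the TPM of both groups did not overlap. The comparisons within a line share control libraries and are not independent of each other.

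In NCI-H23, *NEAT1* at the gene level, its long scaffold isoform not told apart, stood out after loss of both paralogs. It read 419.8, 235 and 408 TPM in *TRA2A/B* DKD, against 49.0, 72.9 and 69.6 in Control KD, 98.0, 54.3 and 74.2 in *TRA2A* KD and 66.7, 59.6 and 75.3 in *TRA2B* KD. Every DKD library was above every other library of the line, and the 3 other conditions overlapped. *NEAT1* was 5.55-fold its control by mean TPM as deposited. On scaled TPM it rose by 2.29 on the log2 scale (SE 0.228, 95% interval 1.78 to 2.79, limma adjusted p = 1.85e-05). It was also higher than in *TRA2A* KD by 2.05 (adjusted p = 5.40e-05) and than in *TRA2B* KD by 2.31 (adjusted p = 1.94e-05). The DKD change exceeded the sum of both single KD changes by 2.08 (SE 0.323, adjusted p = 0.00132).

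*MALAT1*, the speckle-associated lncRNA, rose less in the same cells. It read 568, 646 and 657 TPM in NCI-H23 *TRA2A/B* DKD, 375, 235 and 404 in Control KD, 346, 419 and 383 in *TRA2A* KD and 293, 173 and 209 in *TRA2B* KD. All DKD libraries lay above all others. *MALAT1* in the DKD was 1.84-fold its control (log2 0.76, SE 0.224, limma adjusted p = 0.0179), a call lost without Control KD replicate 2 (0.50, adjusted p = 0.0502) or DKD replicate 2 (0.71, adjusted p = 0.0552). It was higher than in *TRA2B* KD by 1.46 (adjusted p = 0.000427), and the difference from *TRA2A* KD of 0.53 missed the threshold (adjusted p = 0.0839). That difference was called with TPM as deposited (0.71, adjusted p = 0.0239), with a minimum of 5 TPM (0.59, adjusted p = 0.0462) and with only the groups compared (0.54, adjusted p = 0.0114). The DKD change exceeded the sum of the single ones by 1.23 (SE 0.317, adjusted p = 0.0190), a call lost with no filter (1.15, adjusted p = 0.0535). *TRA2B* KD alone was at −0.70 (limma unadjusted p = 0.0103, adjusted p = 0.345).

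The other members tested in NCI-H23, *TUG1* and *MEG3*, had smaller log2 changes in the DKD against Control KD, with no test between members. *TUG1* read 11.1 to 12.6 TPM in the DKD against 8.0 to 9.97 in Control KD, with no overlap, but its log2 change of 0.29 missed the threshold (SE 0.112, limma adjusted p = 0.0544). Its excess over both single KDs was 0.38 (adjusted p = 0.114), called without *TRA2B* KD replicate 1 (0.49, adjusted p = 0.0445). *TUG1* was higher than in *TRA2A* KD by 0.33 (adjusted p = 0.0388) and than in *TRA2B* KD by 0.34 (adjusted p = 0.0293). The first call was lost without any 1 of the DKD libraries or *TRA2A* KD replicate 1 or 3 (0.29 to 0.34, adjusted p up to 0.106), and the second without any 1 of the DKD libraries or *TRA2B* KD replicate 2 or 3 (0.28 to 0.36, adjusted p up to 0.107). *MEG3* read 5.93 to 8.40 TPM in the DKD and 3.62 to 6.42 in Control KD (log2 0.53, adjusted p = 0.0857). Without Control KD replicate 2 *TUG1* was called (0.37, adjusted p = 0.0327), and without Control KD replicate 3 *MEG3* was called (0.76, adjusted p = 0.0185). With TPM as deposited both were called (0.45 and 0.68, limma adjusted p = 0.0147 and 0.0454). *TUG1* was also called with a minimum of 5 TPM (0.35, adjusted p = 0.0268). *MEG3* was higher than in *TRA2A* KD, at 3.24 to 4.61 TPM, by 0.77 (adjusted p = 0.0222, lost without *TRA2A* KD replicate 3 or DKD replicate 1 or 3, at 0.0604 to 0.0770). Of the 4 members tested, 2 were called in NCI-H23 *TRA2A/B* DKD, both higher, where 43.2% of all genes tested were called and 20% called higher. In the contrast with *TRA2A* KD, 3 were called higher (37.8% of genes called, 16.9% higher), as were 3 in the contrast with *TRA2B* KD (41% called, 18.3% higher) and 2 in the excess over both single KDs (21% called, 8.23% higher). No member was called in *TRA2A* KD or *TRA2B* KD alone, where 0.976% and 0.196% of genes were called. Mitochondrially encoded RNA took 19.3 to 28.3% of the TPM in the DKD and 23.1 to 31.9% in Control KD, and its part in these differences was not tested.

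**Figure D2:**
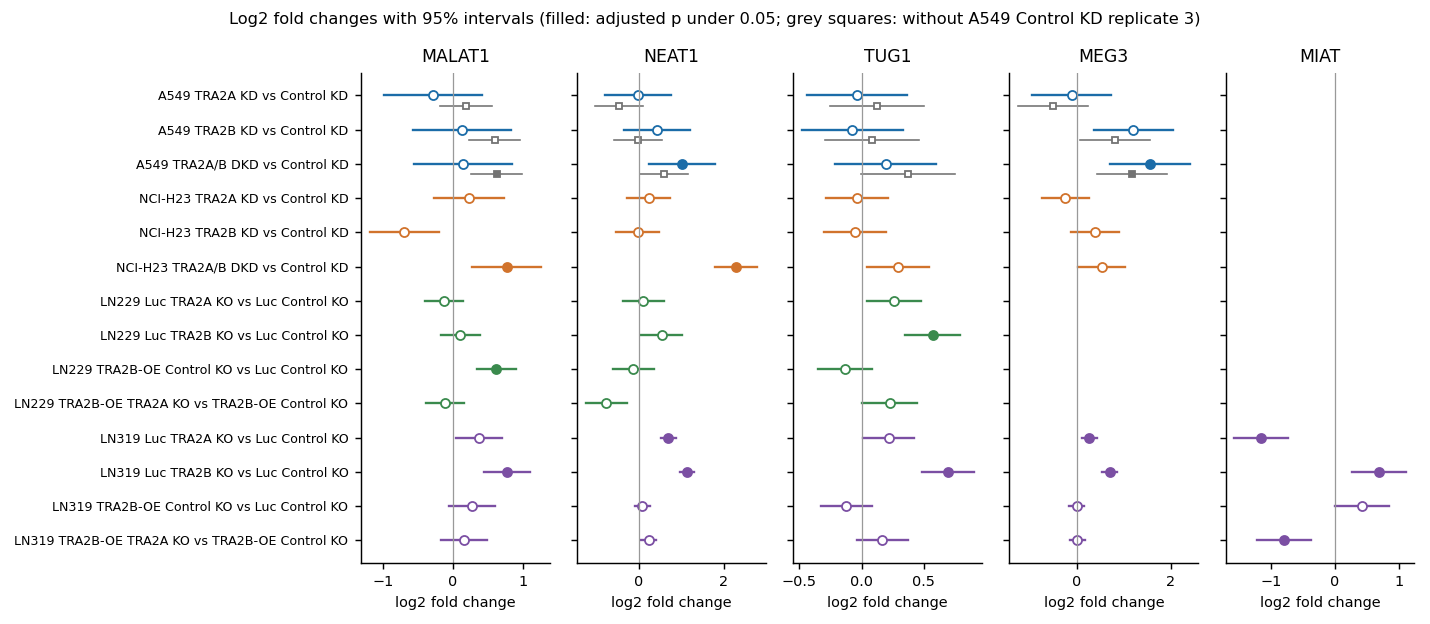
Log2 fold changes (horizontal axis, own range in each panel) of *MALAT1*, *NEAT1*, *TUG1*, *MEG3* and *MIAT* in each comparison with a control (vertical axis) in which they were tested, with 95% intervals, filled where adjusted p was under 0.05. Grey squares give A549 values without Control KD replicate 3; *NEAT1* in NCI-H23 *TRA2A/B* DKD lies at 2.29 and *NEAT1* in LN319 *TRA2B* KO at 1.13.

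In A549, *NEAT1* and *MEG3* were higher after the double knockdown and *MALAT1* gave no call with all libraries. *MEG3* read 46.9, 50.7 and 77.6 TPM in *TRA2A/B* DKD, 20.2, 25.1 and 11.8 in Control KD, 14.2, 25.6 and 9.69 in *TRA2A* KD and 49.3, 39.5 and 31.9 in *TRA2B* KD. The DKD libraries lay above all Control KD and *TRA2A* KD libraries and overlapped *TRA2B* KD. *MEG3* rose 3.07-fold (log2 1.56, SE 0.382, limma adjusted p = 0.0106), and without Control KD replicate 3 the change was 1.19 (SE 0.335, adjusted p = 0.0182). It was higher than in *TRA2A* KD by 1.67 (adjusted p = 0.00749). In *TRA2B* KD alone *MEG3* did not overlap Control KD, yet its log2 difference of 1.21 missed the threshold (adjusted p = 0.275, and 0.81 with adjusted p = 0.411 without replicate 3).

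*NEAT1* read 318, 395 and 524 TPM in A549 *TRA2A/B* DKD, 219, 264 and 116 in Control KD, 151, 245 and 129 in *TRA2A* KD and 289, 236 and 197 in *TRA2B* KD. The lowest DKD library lay above the highest of every other A549 condition. *NEAT1* was 2.06-fold its control (log2 1.02, SE 0.352, limma adjusted p = 0.0490). This call lay close to the threshold. It was lost without Control KD replicate 3 (0.60, SE 0.253, adjusted p = 0.0891) and without DKD replicate 1, 2 or 3 (1.20, 1.03 and 0.85, adjusted p = 0.0525, 0.104 and 0.155). Against *TRA2A* KD the difference was 1.04 (adjusted p = 0.0477, lost without any DKD library or *TRA2A* KD replicate 1 or 3, at 0.0524 to 0.149), and against *TRA2B* KD it was 0.60 (adjusted p = 0.259). With only the groups compared, the difference from *TRA2B* KD was called (0.62, adjusted p = 0.0352). The excess over both single KDs was 0.61 with all libraries (SE 0.498, adjusted p = 0.441) and 1.07 without Control KD replicate 3 (SE 0.340, adjusted p = 0.0468).

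*MALAT1* read 1031, 952 and 868 TPM in A549 *TRA2A/B* DKD, 759, 527 and 557 in *TRA2A* KD and 838, 836 and 848 in *TRA2B* KD. With 597, 517 and 1756 TPM in Control KD, its DKD change was 0.14 (SE 0.317, limma adjusted p = 0.782). Without Control KD replicate 3 it became 0.62 (SE 0.164, adjusted p = 0.0133), so 1 library decided whether *MALAT1* was called. The single KD changes moved with the same library, from −0.28 to 0.18 in *TRA2A* KD and from 0.13 to 0.60 in *TRA2B* KD (adjusted p = 0.771 and 0.191 without it). Contrasts of the DKD with the single KDs gave no call either, at 0.42 against *TRA2A* KD (adjusted p = 0.362) and 0.00447 against *TRA2B* KD (adjusted p = 0.995). Their means use no Control KD library, but their SE of 0.317 came from the spread of all A549 libraries, Control KD replicate 3 included. In both, the deposited TPM of the groups did not overlap, and with TPM as deposited the second difference was 0.17 (adjusted p = 0.774). *TUG1* read 8.26 to 11.3 TPM in the DKD and 6.05 to 11.3 in Control KD (log2 0.20, adjusted p = 0.454, and 0.37 with adjusted p = 0.113 without replicate 3). Of the 4 members tested, 2 were called in A549 *TRA2A/B* DKD, both higher, where 30.6% of genes were called and 14.3% called higher. Against *TRA2A* KD, 2 were called higher (28.9% of genes called, 13.2% higher), and against *TRA2B* KD (23.8%) and in the excess over both single KDs (14.7%) none was called with all libraries. None was called in *TRA2A* KD or *TRA2B* KD alone, where 0.207% and 0.341% of genes were called.

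In LN319, Luc *TRA2B* KO was accompanied by higher levels of all 5 members tested, by 1.74- to 2.36-fold in mean TPM as deposited. *TRA2A* RNA was also lower there, at 84.6% of its control mean (log2 −0.35, limma adjusted p = 0.00397). *NEAT1* read 381, 378 and 360 TPM in Luc *TRA2B* KO and 162, 163 and 149 in Luc Control KO, *MALAT1* 456, 447 and 454 against 243, 276 and 220. *MEG3*, the most abundant member in this line, read 2532, 2678 and 2503 TPM against 1493, 1469 and 1436. *TUG1* read 19.6, 20.9 and 18.4 TPM against 10.2, 13.1 and 10.7, and *MIAT* 8.40, 8.02 and 9.09 against 5.22, 5.52 and 3.93. No *TRA2B* KO library overlapped a control library for any of the 5, and the share of all genes without overlap was not counted. *NEAT1* rose by 1.13 on the log2 scale (SE 0.0796, limma adjusted p = 4.79e-06), *MALAT1* by 0.78 (SE 0.151, adjusted p = 0.00138), *MEG3* by 0.70 (SE 0.0733, adjusted p = 3.18e-05) and *TUG1* by 0.69 (SE 0.0950, adjusted p = 0.000157). *MIAT* rose by 0.69 (SE 0.194, adjusted p = 0.0120), a call lost without Luc Control KO replicate 3 (0.56, adjusted p = 0.0554). All 5 members tested were called higher, where 42.6% of genes were called and 18.6% called higher. *KCNQ1OT1*, below the filter, read 0.244 to 0.247 TPM against 0.124 to 0.163. Mitochondrially encoded RNA took 18.3 to 20.6% of the TPM in Luc *TRA2B* KO and 12.1 to 12.8% in Luc Control KO, and its part in these differences was not tested.

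Loss of *TRA2A* in LN319 gave a mixed picture, with *NEAT1* and *MEG3* higher and *MIAT* lower. *NEAT1* read 273, 252 and 225 TPM in Luc *TRA2A* KO, above all 3 controls, and rose by 0.70 (SE 0.0796, limma adjusted p = 0.000243). *MEG3* read 1932, 1714 and 1536 TPM and rose by 0.27 (SE 0.0733, adjusted p = 0.0284), a call lost without any of the 3 Luc Control KO libraries or *TRA2A* KO replicate 1 or 2 (0.21 to 0.29, adjusted p = 0.0564 to 0.104). The *MEG3* call was also lost with TPM as deposited (0.23, adjusted p = 0.120), quantile normalization (0.22, adjusted p = 0.274), no filter (0.25, adjusted p = 0.0724) and only the groups compared (0.26, adjusted p = 0.0934). *MIAT*, the neural lncRNA, read 2.56, 2.54 and 1.34 TPM, 43.9% of its control mean, and fell by 1.16 (SE 0.194, adjusted p = 0.00211). *MALAT1* at 253 to 359 TPM (log2 0.37, adjusted p = 0.126) and *TUG1* at 11.1 to 14.4 TPM (0.22, adjusted p = 0.155) overlapped the controls. Thus 2 of 5 members were called higher and 1 lower, where 14.3% of genes were called and 6.82% called higher. *MIAT* was the one member called in opposite directions after loss of *TRA2A* and of *TRA2B*, comparisons that share the Luc Control KO libraries. Mitochondrially encoded RNA took 13.2 to 15.0% of the TPM in Luc *TRA2A* KO, above all 3 controls, and its part was not tested.

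With *TRA2B* overexpressed in LN319, *MIAT* again fell after *TRA2A* KO. It read 4.36, 3.56 and 3.57 TPM in TRA2B-OE *TRA2A* KO and 6.98, 6.41 and 7.51 in TRA2B-OE Control KO, with no overlap (55.0% of the reference). The change of −0.79 (SE 0.194, limma adjusted p = 0.0485) lost its call on leaving out any 1 of these 6 libraries (−0.87 to −0.71, adjusted p = 0.0745 to 0.159). *NEAT1* read 183, 236 and 188 TPM against 183, 188 and 165 (log2 0.23, adjusted p = 0.147). The *NEAT1* response to *TRA2A* KO was smaller in TRA2B-OE than in Luc cells by 0.47 on the log2 scale. This difference missed the threshold (SE 0.113, 95% interval −0.71 to −0.22, limma unadjusted p = 0.00122, adjusted p = 0.323). *TRA2A* RNA itself fell by 0.87 in TRA2B-OE and by 1.55 in Luc cells. Its difference of 0.68 also missed the threshold (unadjusted p = 4.86e-05, adjusted p = 0.117). The response of *MIAT* differed by 0.36 (95% interval −0.23 to 0.96, adjusted p = 0.805). Of the 5 members tested, 1 was called in TRA2B-OE *TRA2A* KO, lower, where 2.77% of genes were called, and none in the difference between the responses, where 0.0207% were called. The limma fit called 4 genes in that difference and gave 1527 an unadjusted p under 0.05. *TRA2B* overexpression alone gave no call among the members (4.31% of genes called), although *MIAT* (6.41 to 7.51 TPM against 3.93 to 5.52; log2 0.43, adjusted p = 0.193) and *NEAT1* (165 to 188 TPM against 149 to 163; log2 0.09, adjusted p = 0.521) did not overlap the Luc controls.

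**Figure D3:**
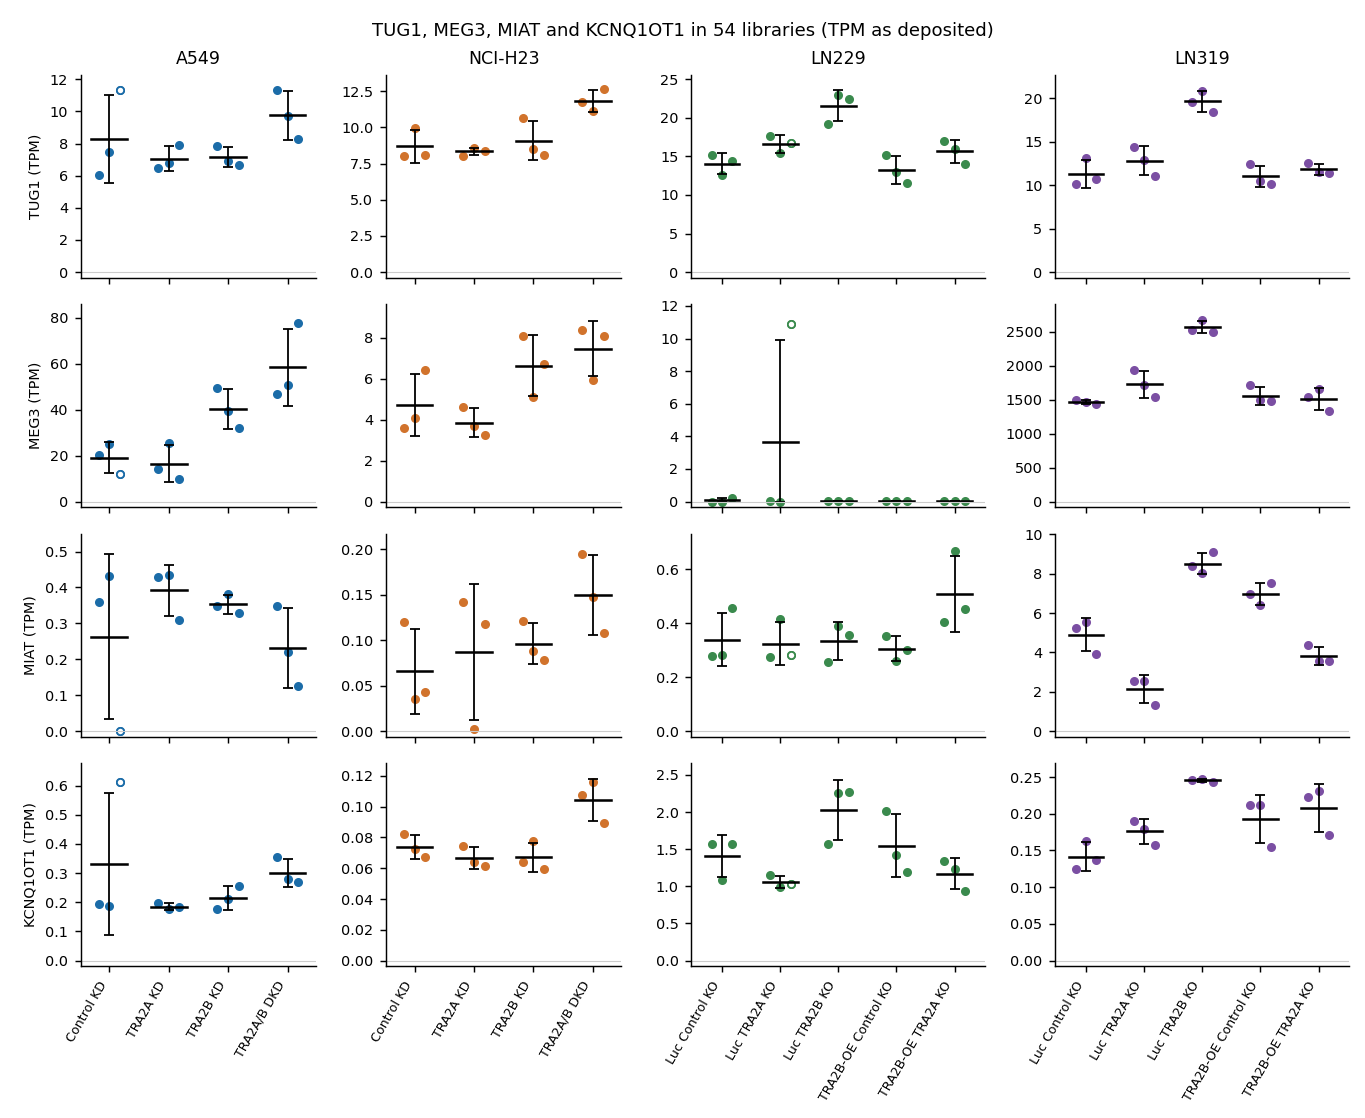
TPM of *TUG1*, *MEG3*, *MIAT* and *KCNQ1OT1* (rows) in each of the 54 libraries, by cell line (columns) and condition (horizontal axis), with bars for the mean and SD of 3 replicates (lower bar ends cut at 0) and open circles as in the plot of *MALAT1* and *NEAT1*. Each panel has its own axis from 0; *MIAT* in LN319 runs from 1.34 to 2.56 TPM in Luc *TRA2A* KO to 8.02 to 9.09 TPM in Luc *TRA2B* KO, and *MEG3* in LN229 is near 0 in all libraries but 1.

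In LN229, where less of the targeted RNA was lost, 2 member calls were made. *TUG1*, at 19.2, 22.9 and 22.5 TPM in Luc *TRA2B* KO against 15.2, 12.5 and 14.5 in Luc Control KO, rose by 0.57 (SE 0.101, limma adjusted p = 0.0335). This call was lost without Luc Control KO replicate 2 or 3 or *TRA2B* KO replicate 2 or 3 (0.51 to 0.57, adjusted p = 0.124 to 0.172). *MALAT1* read 495, 427 and 397 TPM in TRA2B-OE Control KO against 314, 248 and 275 in Luc Control KO and rose by 0.62 (SE 0.127, adjusted p = 0.0414). It lost its call without Luc Control KO replicate 2 or 3 or any TRA2B-OE Control KO library (0.54 to 0.67, adjusted p = 0.0841 to 0.139). In TRA2B-OE *TRA2A* KO, *MALAT1* was 329 to 481 TPM, which overlapped TRA2B-OE Control KO (log2 −0.11, adjusted p = 0.654).

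*NEAT1* in LN229 passed no test with all libraries. It read 366, 443 and 387 TPM in Luc *TRA2B* KO and 416, 203 and 223 in Luc Control KO (log2 0.53, SE 0.224, limma adjusted p = 0.184), and without Luc Control KO replicate 1 the change was 0.85 (adjusted p = 0.00583). It read 123, 168 and 161 TPM in TRA2B-OE *TRA2A* KO and 249, 279 and 223 in TRA2B-OE Control KO, with no overlap (log2 −0.76, SE 0.224, adjusted p = 0.0644), although *TRA2A* RNA was at 87.2% of its reference there. *KCNQ1OT1*, tested in LN229 alone, read 1.57 to 2.27 TPM in Luc *TRA2B* KO, 1.00 to 1.15 in Luc *TRA2A* KO and 1.09 to 1.57 in Luc Control KO (log2 0.46 and −0.35, adjusted p = 0.270 and 0.429). Of the 4 members tested, 1 was called in Luc *TRA2B* KO (0.568% of genes called), 1 in TRA2B-OE Control KO (1.03%), and none in Luc *TRA2A* KO (3.68%) or TRA2B-OE *TRA2A* KO (6.07%). In the difference between the responses to *TRA2A* KO in TRA2B-OE and Luc cells, limma called 0 of 18490 genes (0%), 1051 of which had an unadjusted p under 0.05. *NEAT1* in that difference was at −0.87 (95% interval −1.55 to −0.18, adjusted p = 0.831).

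The order of conditions by mean level differed between *MALAT1* and *NEAT1*. For *NEAT1* the highest condition was *TRA2A/B* DKD in A549 (412.5 ± 104 TPM, SD, n = 3) and NCI-H23 (354 ± 103 TPM), and Luc *TRA2B* KO in LN229 (398.5 ± 39.6 TPM) and LN319 (373 ± 11.3 TPM). In A549, NCI-H23 and LN319 its libraries lay above all others of the line, whereas in LN229 Luc Control KO replicate 1, at 416 TPM, lay among them. For *MALAT1*, *TRA2A/B* DKD in NCI-H23 (623 ± 48.6 TPM) and Luc *TRA2B* KO in LN319 (453 ± 4.42 TPM) were highest without overlap. In LN229 TRA2B-OE Control KO (439.8 ± 50.3 TPM) was highest for *MALAT1* and overlapped TRA2B-OE *TRA2A* KO (417 ± 78.4 TPM). In A549 Control KD (957 ± 694 TPM) was highest because of replicate 3; the other replicates averaged 557 TPM, below every other A549 condition. *TUG1* was highest in the same conditions as *NEAT1* in all 4 lines, overlapping the next condition in A549 alone.

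Across the libraries of a line, on the log2(scaled TPM + 0.1) scale, *NEAT1* and *MEG3* had a Pearson r of 0.92 over 12 A549 libraries (0.90 without Control KD replicate 3) and 0.94 over 15 LN319 libraries, but 0.54 over 12 in NCI-H23. After subtracting condition means, r was 0.97 in A549, 0.54 in NCI-H23 and 0.51 in LN319. The neighbours *MALAT1* and *NEAT1* had an r of −0.32 in A549 (0.24 without Control KD replicate 3) and 0.65 in NCI-H23, and of −0.35 and 0.77 in LN229 and LN319. These values describe libraries that share conditions and library preparation, and carry no test.

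**Figure D4:**
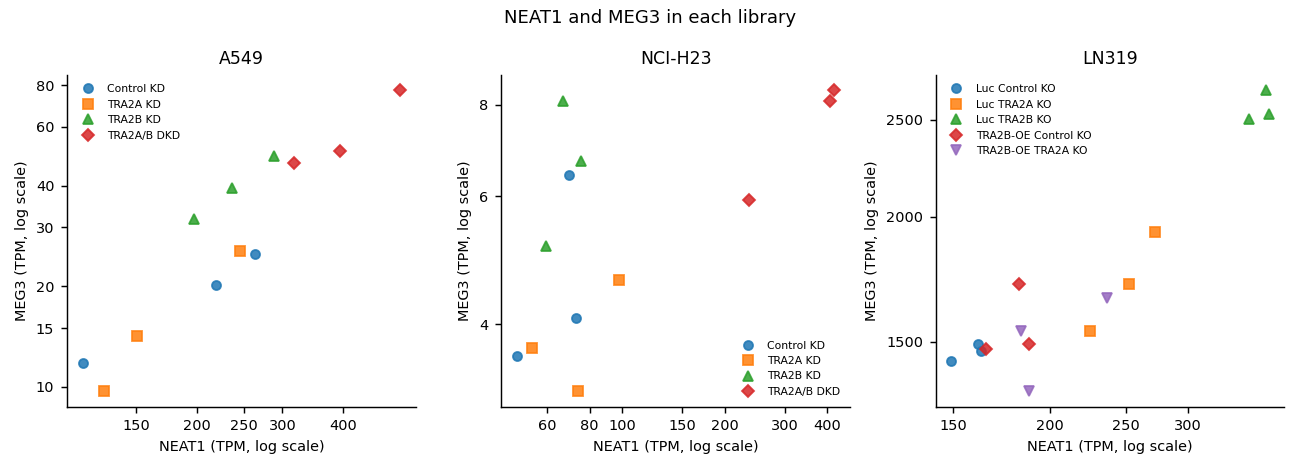
*NEAT1* (horizontal) against *MEG3* (vertical) in TPM, both on log axes, 1 point per library, with 12 libraries in A549 and NCI-H23 and 15 in LN319 and a symbol for each condition. The points run along a rising line in A549 (r of 0.92) and LN319 (0.94) and less so in NCI-H23 (0.54).

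Among 13362 genes tested in all 4 lines, those most like *MALAT1* by the mean of the 4 Pearson correlations across libraries were *NPIPB5* (0.75), *BAZ2A* (0.74), *USP42* (0.73), *NFAT5* (0.72) and *SETD1B* (0.72). Without A549 Control KD replicate 3, *BAZ2A* and *USP42* stayed in the top 5, while *NPIPB5* ranked 15th, *NFAT5* 18th and *SETD1B* 191st. Over deviations from condition means *SETD1B* ranked 4th and *NPIPB5* 1598th. Those most like *NEAT1* were *VAMP2* (0.89), *CTD-3184A7.4* (0.88), the gene row *MIR34A* (0.87), *TMEM129* (0.87) and *ABCC5* (0.87). *VAMP2*, *CTD-3184A7.4* and *ABCC5* stayed in the top 5 without A549 Control KD replicate 3, and *MIR34A* led over deviations from condition means (0.81). *NEAT1* ranked 3220th of the 13362 genes by likeness to *MALAT1* (mean r of 0.19), and 1480th without that library (0.33).

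RNA of genes for paraspeckle proteins, the partners of *NEAT1*, gave lower calls and no higher ones in A549 *TRA2A/B* DKD. Of 21 genes, 0 were called higher and 10 lower (median log2 −0.33 against 0.03 over all genes), where 30.6% of all genes were called. Without Control KD replicate 3 the counts were 0 and 14. They were 0 and 8 with TPM as deposited (median −0.25) and 0 and 7 with quantile normalization (median −0.19). Of all 16405 genes, 4763 and 5139 were called in these settings. In NCI-H23 3 were called higher and 9 lower (median −0.18 against 0.02), where 43.2% of all genes were called. With TPM as deposited and with quantile normalization this became 3 and 7 (median −0.024 and −0.048). *HNRNPA1*, a splicing regulator, fell by 1.33 in A549 and by 1.00 in NCI-H23, *HNRNPUL1* by 0.88 and 0.45, *NONO*, a core paraspeckle protein, by 0.67 and 0.53, and *MATR3*, a nuclear matrix protein, by 0.55 and 0.60 (limma adjusted p from 2.37e-07 to 0.00531). The A549 call of *MATR3* was lost with TPM as deposited (adjusted p = 0.0546) and with quantile normalization (adjusted p = 0.0825). In LN319 Luc *TRA2B* KO 4 were called higher and 11 lower (median −0.17), but under quantile normalization this became 8 higher and 4 lower (median 0.084). In LN319 Luc *TRA2A* KO 1 was called higher and 2 lower, and in LN229 Luc *TRA2B* KO 0 and 0.

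**Figure D5:**
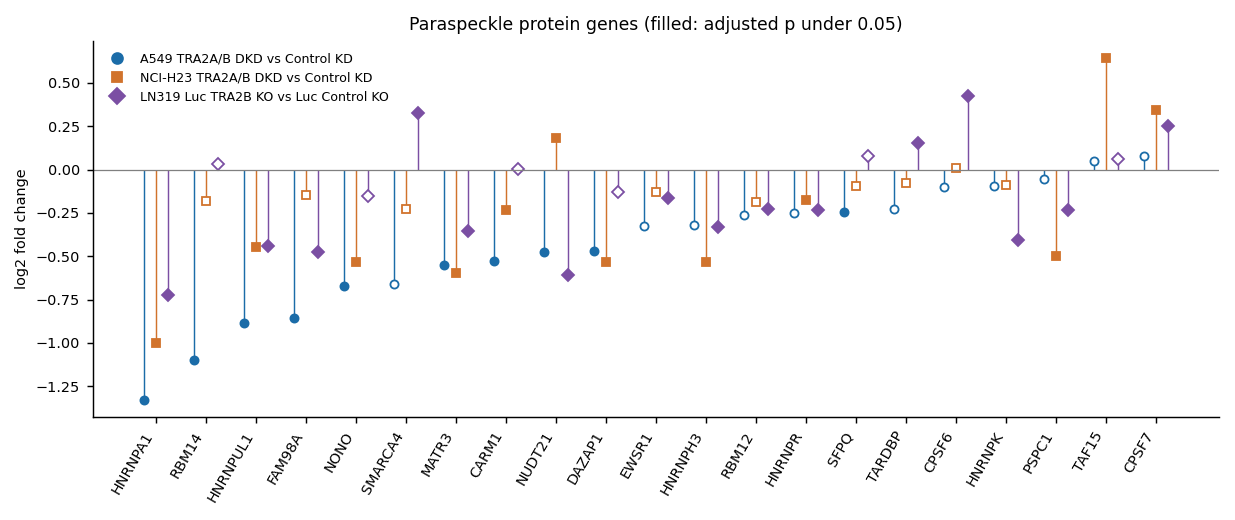
Log2 fold changes (vertical axis) of the 21 paraspeckle protein genes (horizontal axis) in A549 *TRA2A/B* DKD, NCI-H23 *TRA2A/B* DKD and LN319 Luc *TRA2B* KO against their controls, filled where adjusted p was under 0.05. The 10 filled A549 points all lie below 0, *HNRNPA1* lowest at −1.33; 9 NCI-H23 and 11 LN319 filled points lie below 0 and 3 and 4 above, and the LN319 balance reverses under quantile normalization.

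Of 12 nuclear speckle protein genes other than SR proteins, 0 were called higher and 6 lower in A549 *TRA2A/B* DKD, 1 and 6 in NCI-H23 *TRA2A/B* DKD, and 4 and 1 in LN319 Luc *TRA2B* KO, where 30.6, 43.2 and 42.6% of all genes were called. The LN319 counts became 7 and 0 with TPM as deposited and 9 and 0 with quantile normalization. *PRPF8*, a core spliceosome protein, fell by 0.82 in A549 and by 0.50 in NCI-H23, *U2AF2*, which recognises the 3′ splice site, by 0.61 and 0.68, *BCLAF1* by 0.66 and 0.52, and *SON*, a speckle scaffold, by 0.53 and 0.47 (limma adjusted p from 3.82e-05 to 0.0447). *SON* lost its A549 call without Control KD replicate 3 (−0.29, adjusted p = 0.116), with TPM as deposited (adjusted p = 0.143) and with quantile normalization (adjusted p = 0.196). Of 19 genes tested for 3′ end processing and turnover of *MALAT1* and *NEAT1* RNA, 0 were called higher and 5 lower in A549 (2 and 6 without Control KD replicate 3) and 1 and 6 in NCI-H23. Of 18 in LN319 Luc *TRA2B* KO, 1 was called higher and 8 lower. These counts stand beside the same shares of all genes called (30.6, 43.2 and 42.6%). *POP1*, an RNase P subunit, fell by 0.45 and 0.71 in the lung lines, *EXOSC10*, a nuclear exosome nuclease, by 0.58 and 0.29, and *XRN2*, a nuclear exonuclease, by 0.33 and 0.21 (adjusted p from 0.000830 to 0.0218). With TPM as deposited, the NCI-H23 split of this list was 2 higher and 2 lower, and *EXOSC10* and *XRN2* lost their NCI-H23 calls there and with quantile normalization. *POP1* lost its A549 call without Control KD replicate 3 (−0.35, adjusted p = 0.0521) and with TPM as deposited (adjusted p = 0.0906).

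Among other lncRNAs, 4 of 17 tested were called higher and none lower in A549 *TRA2A/B* DKD (median log2 0.44; 4 and 2 without Control KD replicate 3), 3 higher and 3 lower of 17 in NCI-H23, and 3 and 3 of 16 in LN319 Luc *TRA2B* KO. Over all genes, 30.6, 43.2 and 42.6% were called in these comparisons, 14.3, 20 and 18.6% higher. *DANCR* rose by 1.63 in A549 and by 0.79 in NCI-H23, *HOTAIRM1* by 1.49 and 0.92, and *MIR22HG* by 1.05 and 0.42 (limma adjusted p from 0.000148 to 0.0259). In LN319, *DANCR* fell by 0.26 in Luc *TRA2B* KO and rose by 0.59 in Luc *TRA2A* KO (adjusted p = 0.00523 and 0.000170), the first call being lost with quantile normalization (adjusted p = 0.0514).

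Lineage markers were called in the same conditions as the members, where 30.6, 43.2 and 42.6% of all genes were called. Of the markers of lung carcinoma lines, 4 of 5 tested were called lower in A549 *TRA2A/B* DKD, 4 of 5 in NCI-H23 *TRA2A/B* DKD and 3 of 4 in LN319 Luc *TRA2B* KO, and 0 higher. Without Control KD replicate 3 it was 5 of 5 in A549, and with TPM as deposited 2 of 5 in NCI-H23. Of the glioma line markers, 2 of 4, 3 of 3 and 2 of 5 were called lower in these conditions, and 1 higher, in LN319. The LN319 split became 2 higher and 2 lower with TPM as deposited, and 2 higher and 0 lower with quantile normalization. With quantile normalization 1 of 4 was called lower in A549. *CD68*, the only gene tested of 5 markers of cells the cultures should lack, was called lower in LN319 Luc *TRA2B* KO (−0.39, a call lost with TPM as deposited) and LN229 Luc *TRA2B* KO (−0.96). It was called higher in LN319 Luc *TRA2A* KO (0.76), in LN229 TRA2B-OE Control KO (0.74) and in A549 *TRA2A/B* DKD against *TRA2B* KD (0.69) and in the excess over both single KDs (0.93), but not in the DKD of either lung line against Control KD. Their part in the members' values was not tested.

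The genes beside the members did not move with them as a block. Of the 5 tested neighbours of *MALAT1* and *NEAT1*, 0 were called higher and 1 lower in A549 *TRA2A/B* DKD, 0 and 3 in NCI-H23 *TRA2A/B* DKD and 1 and 2 in LN319 Luc *TRA2B* KO. These and the other neighbour counts below stand beside 30.6, 43.2 and 42.6% of all genes called in the 3 comparisons. *LTBP3*, a binder of latent TGF-beta, fell by 1.19 in A549 and by 0.79 in NCI-H23 (limma adjusted p = 1.21e-05 and 0.00155), the conditions in which *NEAT1* rose. In LN319 *LTBP3* rose by 0.26 in Luc *TRA2B* KO (adjusted p = 0.00552) and fell by 0.59 in Luc *TRA2A* KO (adjusted p = 0.000170). After *TRA2A* KO in LN229, 3 of the 5 were called lower in Luc (3.68% of all genes called) and 3 in TRA2B-OE cells (6.07%). These, named after their values were seen, were *FRMD8*, *LTBP3* and *SLC25A45*, at −0.41, −0.47 and −0.70 in Luc and −0.47, −0.47 and −0.71 in TRA2B-OE cells (adjusted p from 0.00297 to 0.0282), while *MALAT1* and *NEAT1* gave no call. Beside *MEG3* in LN319 Luc *TRA2B* KO, *MEG8* rose by 0.39 (adjusted p = 0.0242, lost with quantile normalization) and *MEG9* by 0.48 (adjusted p = 0.00149), lncRNAs of the same imprinted region, whereas the oppositely imprinted *DLK1* was at −0.26 (adjusted p = 0.179). None of the neighbours of *MEG3* passed the filter in the lung lines or LN229. *SMTN*, near *TUG1*, fell by 0.38 in A549 and by 0.43 in NCI-H23 (adjusted p = 0.0442 and 0.0268), calls lost with TPM as deposited in both lines and with quantile normalization in A549, while 2 of the 3 tested neighbours of *TUG1* were called higher in NCI-H23 and 1 in LN319 Luc *TRA2B* KO. Near *KCNQ1OT1*, *SLC22A18* rose by 1.02 in A549, by 2.01 in NCI-H23 and by 1.20 in LN319 Luc *TRA2B* KO (adjusted p = 0.0296, 0.0435 and 0.000116), the NCI-H23 call being lost with quantile normalization (1.59, adjusted p = 0.0616). Also there, *PHLDA2* rose by 1.15 in A549 and fell by 0.97 in NCI-H23 (adjusted p = 0.00486 and 2.82e-05). Of the 6 neighbours of *KCNQ1OT1* tested in A549, 2 were called higher and 1 lower with all libraries, and 2 and 2 without Control KD replicate 3. None of the 3 tested neighbours of *MIAT* was called in these conditions or in LN319 Luc *TRA2A* KO.

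*KCNQ1OT1* lies antisense to *KCNQ1*; the libraries were directional, but the strand setting of the quantification is not given in the sources used here, so reads of both genes may be shared. Members below the filter were *KCNQ1OT1* in A549, NCI-H23 and LN319, *MIAT* in A549, NCI-H23 and LN229, and *MEG3* in LN229. Fitted without a filter, none of them was called in any comparison, and the lowest adjusted p was 0.196, for *KCNQ1OT1* in LN319 Luc *TRA2B* KO (log2 0.42). *KCNQ1OT1* read 0.0895 to 0.116 TPM in NCI-H23 *TRA2A/B* DKD and 0.0670 to 0.0820 in Control KD, with no overlap. *MIAT* in A549 and NCI-H23 stayed at or below 0.436 TPM.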

How the data were processed

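RNA-seq was performed on 54 libraries of 4 cell lines (18 conditions, 3 replicates each). The deposited TPM are gene-level values (transcript abundance scaled for transcript length and library total) that the authors made with kallisto (0.48.0) against a GRCh38 gene annotation; the submitters' processing notes also name STAR (2.7.3). The authors' methods used a count model, but the tables hold TPM, so no count test was run and the depth of each library is unknown. Within a line, genes reaching 1 TPM in 4 or more libraries were kept, TPM were scaled by trimmed means (trims of 30 and 5%), and log2(scaled TPM + 0.1) was fitted with limma (3.58.1, R 4.3.3) over all libraries of the line, two-sided, with Benjamini-Hochberg adjusted p under 0.05 as the call. Fold changes on this scale understate the change of low genes. The fit was tested on simulated data. Levels, exact permutation tests, correlations and sequence features were computed in Python 3.11.15 (pandas 2.3.3, scipy 1.17.1). Sequences came from GRCh38 and a later version of its Gencode annotation than the one the paper names for quantification.

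Groups and replicate numbers came from the labels. The labels do not say that replicates are separate cultures, so p-values measure the spread between libraries, which may be technical. The members and the lists (paraspeckle proteins, nuclear speckle proteins, RNA 3′ end and turnover factors, neighbours of each member, other lncRNAs, and markers) were chosen with earlier results of these data known, and 1 gene of the paraspeckle list is not reported here. Besides the members, *TRA2A* and *TRA2B*, the text names the 5 genes most like *MALAT1* and *NEAT1*, up to 4 genes of each list called in the DKD of both lung lines by the largest mean absolute change, and neighbours of called members. Genes named otherwise are said to be chosen after their values were seen. Alternatives were other pseudocounts, filters, scalings, a replicate block, fits of the compared groups alone, a fold threshold and leaving out each library. No column was left without a sample.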

Additional observations from a re-analysis of the deposited data

Results flagged for a closer look

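In NCI-H23, the changes of 2 members in *TRA2A/B* DKD differed from the sum of the changes in *TRA2A* KD and *TRA2B* KD by a test of that difference. For *NEAT1* the excess was 2.08 on the log2 scale (95% interval 1.36 to 2.79, limma adjusted p = 0.00132), with DKD libraries at 235 to 420 TPM and all other libraries at 49.0 to 98.0 TPM. For *MALAT1* the excess was 1.23 (95% interval 0.53 to 1.93, limma adjusted p = 0.0190), a call lost with no filter (1.15, adjusted p = 0.0535). In A549 the *MALAT1* excess was 0.28 (adjusted p = 0.713), and −0.16 without Control KD replicate 3 (adjusted p = 0.653).

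After *TRA2A* KO with *TRA2B* overexpressed, *MIAT* read on opposite sides of its reference in the 2 glioblastoma lines. All LN229 libraries were above the TRA2B-OE Control KO mean, at 167% of it on average, and all LN319 libraries were below it, at 55.0% on average. The LN229 value passed no test (log2 0.52 without a filter, limma adjusted p = 0.589), with *MIAT* below the filter at 0.255 to 0.670 TPM over all LN229 libraries, and the LN319 call was lost on leaving out any 1 library of that comparison. The difference between the lines was not tested.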

How the results depend on the processing

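Over 93 member results, alternatives gave 1492 values: 1323 kept direction and side of the threshold, 80 lost a call, 14 gained one and 75 changed sign. No called result changed sign, no value that changed sign passed the threshold, and the largest change among these results was 0.42 on the log2 scale. Of 25 called results, 13 kept the call under every alternative other than the fold threshold. The calls numbered 27 with TPM as deposited, 22 with quantile normalization, 25 with either other pseudocount, 14 with no filter, 27 with a minimum of 5 TPM and 22 when only the groups compared were fitted. Where a call was lost or gained, the cause was not tested.

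Without a filter, *NEAT1* in A549 DKD was at 1.00 (limma adjusted p = 0.115), *MALAT1* in NCI-H23 DKD at 0.69 and *MALAT1* in LN229 TRA2B-OE at 0.64, all without a call. With only the groups compared, *NEAT1* in A549 DKD was at 1.03 and *MALAT1* in LN229 TRA2B-OE at 0.61, again without a call. A required log2 change above 1 removed *MALAT1* in NCI-H23 DKD (0.76), LN229 TRA2B-OE (0.62) and LN319 *TRA2B* KO (0.78), and *NEAT1* in LN319 *TRA2A* KO (0.70).

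Signs changed for results near 0. For *MEG3* in LN319 TRA2B-OE the value became 0.086 with TPM as deposited, 0.045 with a minimum of 5 TPM, 0.0016 with no filter, 0.034 with only the groups compared and 0.20 with quantile normalization. For *MEG3* in LN319 TRA2B-OE *TRA2A* KO it became −0.048, −0.0096, −0.0054, −0.0078 and −0.10 in the same order. With TPM as deposited, *NEAT1* (0.089) and *TUG1* (0.062) changed sign in NCI-H23 *TRA2B* KD, as did *TUG1* (0.0049) and *KCNQ1OT1* (0.011) in the LN229 difference between the responses to *TRA2A* KO. With no filter, *NEAT1* in A549 *TRA2A* KD (0.0092), *MALAT1* in A549 DKD against *TRA2B* KD (−0.036) and *MALAT1* in the LN229 difference (−0.067) did. With quantile normalization, *MALAT1* in A549 *TRA2B* KD (−0.12) and *TUG1* in A549 *TRA2A* KD (0.026) did.

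Leaving out 1 library at a time gave these lowest and highest log2 values. In A549 *TRA2A* KD they were −0.57 to 0.18 for *MALAT1*, −0.46 to 0.26 for *NEAT1*, −0.18 to 0.12 for *TUG1* and −0.50 to 0.20 for *MEG3*. In A549 *TRA2B* KD they were −0.16 to 0.60 for *MALAT1*, −0.018 to 0.70 for *NEAT1* and −0.21 to 0.084 for *TUG1*. In A549 DKD they were −0.15 to 0.62 for *MALAT1* and 0.60 to 1.29 for *NEAT1*. For *MALAT1* they were −0.042 to 0.086 in A549 DKD against *TRA2B* KD and −0.16 to 0.58 in the A549 excess over both single KDs. In NCI-H23 they were −0.043 to 0.36 for *MALAT1* and −0.10 to 0.039 for *TUG1* in *TRA2A* KD, and −0.16 to 0.052 for *NEAT1* and −0.16 to 0.025 for *TUG1* in *TRA2B* KD. They were 0.50 to 0.90 for *MALAT1* in NCI-H23 DKD and −0.028 to 0.28 for *MEG3* in DKD against *TRA2B* KD. In LN229 they were −0.068 to 0.42 for *NEAT1* in *TRA2A* KO and 0.35 to 0.85 in *TRA2B* KO. In LN229 TRA2B-OE they were 0.54 to 0.70 for *MALAT1*, −0.32 to 0.18 for *NEAT1* and −0.11 to 0.21 for *KCNQ1OT1*, and −0.22 to 0.061 for *MALAT1* after *TRA2A* KO. In the LN229 difference they were −0.088 to 0.19 for *MALAT1*, −0.11 to 0.056 for *TUG1* and −0.16 to 0.16 for *KCNQ1OT1*. In LN319 they were −0.021 to 0.031 for *MEG3* in TRA2B-OE, −0.043 to 0.062 for *MEG3* after *TRA2A* KO in TRA2B-OE and −0.14 to 0.015 for *TUG1* in the difference.

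Over all genes, replicate numbers showed little pairing: the correlation of deviations between same-numbered libraries was over 0.1 in 3 of 18 pairs in A549, 1 of 18 in NCI-H23, 3 of 30 in LN229 and 0 of 30 in LN319. This does not speak for single genes. In LN319, *MEG3* was lowest in replicate 3 of every condition (1436, 1536, 2503, 1475 and 1338 TPM). *MALAT1* was lowest there in every condition but Luc *TRA2B* KO (220, 253, 247 and 259 TPM). For *NEAT1* this held in every condition but TRA2B-OE *TRA2A* KO (149, 225, 360 and 165 TPM). *MIAT* was highest in replicate 3 of Luc *TRA2B* KO and TRA2B-OE Control KO (9.09 and 7.51 TPM). With the replicate block, 24 results were called, *MALAT1* in LN319 *TRA2A* KO among them (0.37, limma adjusted p = 0.0245). *MIAT* in LN319 TRA2B-OE *TRA2A* KO (adjusted p = 0.0522) and *TUG1* in NCI-H23 DKD against *TRA2A* KD (adjusted p = 0.0551) were not.

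With TPM as deposited, the median change of all genes moved from 0.03 to 0.11 in A549 DKD, from 0.02 to 0.17 in NCI-H23 DKD and from 0.02 to 0.12 in LN319 *TRA2B* KO. The share of calls that were higher moved from 46.6 to 57.0%, from 46.2 to 63.0% and from 43.7 to 56.4%. In A549 it moved from 45.6 to 68.6% against *TRA2A* KD, from 42.1 to 61.7% against *TRA2B* KD and from 39.6 to 72.7% in the excess over both single KDs. In NCI-H23 the first and the last moved from 44.6 to 65.8% and from 39.1 to 49.5%. It moved from 47.8 to 33.9% in LN319 *TRA2A* KO, from 50 to 72.2% in LN319 TRA2B-OE, from 53.4 to 28.4% in LN319 TRA2B-OE *TRA2A* KO, from 40 to 51.2% in LN229 *TRA2B* KO, from 77.4 to 89.9% in LN229 TRA2B-OE and from 40.0 to 51.4% in LN229 TRA2B-OE *TRA2A* KO. Quantile normalization called 222 genes in LN229 *TRA2B* KO against 105.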

Other observations

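In A549, *MALAT1* and *NEAT1* varied in opposite directions once condition means were subtracted, with a Pearson r of −0.86 over 12 libraries and −0.57 without Control KD replicate 3. In NCI-H23 this r was −0.41, and in LN229 and LN319 it was 0.61 and 0.41 over 15 libraries each. In LN229, *TUG1* and *KCNQ1OT1* had an r of 0.95 over the same deviations. These correlations share library preparation and total, and carry no test.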
